A study of Mus musculus with 16 samples.

Results

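The enzymes of upper glycolysis were examined in RNA sequencing libraries of sorted mouse neutrophils. They are encoded by 10 genes, Hk1, Hk2, Hk3, Gpi1, Pfkl, Pfkp, Pfkm, Aldoa, Aldoc and Tpi1, chosen by symbol from the 49585 gene identifiers of the count tables. All 10 were found and all 10 passed the filter on low counts in every comparison. The libraries came from cells sorted by flow cytometry from bones of C57BL/6 mice aged 8 to 12 weeks. The group P2KO lacked, by its label, PHD2, an oxygen sensor that the gene Egln1 encodes (Vav:cre-PHD2f/f), and P2WT held its wild-type controls. The group P2H2KO was labelled as lacking both PHD2 and HIF2α, a transcription factor that Epas1 encodes (Vav:cre-PHD2/HIF2ff/ff), and P2H2WT held the wild-type controls of that line. Each group had 4 libraries, numbered as in their titles. The titles end in m or f, unevenly within each line. P2KO had 3 m and 1 f, P2WT 2 and 2, P2H2KO 2 and 2, and P2H2WT 3 and 1. Vav:cre is a recombinase driven by a promoter that is active in blood-forming cells, so the deletion was not limited to neutrophils. Whether the wild-type mice carried the recombinase or the floxed alleles is not given in the sources used here.

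Upper glycolysis takes glucose to triose phosphates in 5 steps. Hexokinases trap glucose in the cell as glucose 6-phosphate, glucose phosphate isomerase converts it to fructose 6-phosphate, and phosphofructokinase commits it to glycolysis. Aldolase then splits the sugar, and triose phosphate isomerase interconverts the products. Neutrophils have few active mitochondria and are known for drawing most of their ATP from glycolysis. PHD2 marks the α subunits of hypoxia-inducible factors (HIF) for degradation when oxygen is present, and many glycolytic genes are textbook targets of HIF1. The comparisons asked which of these transcripts differ without PHD2, and whether the differences depend on HIF2α.

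Library totals ranged from 23450746 to 28601284 counts. Egln1 transcripts did not differ detectably between genotypes. The log2 differences, deficient minus control, were 0.038 (SE 0.094) in the P2 line and 0.026 (SE 0.076) in the P2H2 line. For Epas1 they were 0.30 (SE 0.37) and 0.66 (SE 0.29), and P2KO replicate 9 stood apart at 24.2 CPM against 6.73 to 10.4 CPM in the rest of its group. The control groups of the lines did not overlap for Epas1, at 8.73 to 11.2 CPM in P2WT and 2.58 to 5.02 CPM in P2H2WT. Counts summed over whole genes do not show a deleted exon, so neither gene checked the labels, and every direction below rests on them. All 10 neutrophil markers examined, among them S100a8, S100a9, Ly6g and Mmp8, had counts in every library, with summed levels of 22897 to 60879 CPM, the usual unit of counts relative to library size. The 9 erythroid markers found, haemoglobin genes among them, were also abundant in all groups, with sums of 23762 to 48988 CPM. Median sums of the erythroid and the neutrophil markers were 33598 and 31860 CPM in P2WT and 38701 and 29350 in P2KO. They were 41159 and 37311 CPM in P2H2WT and 36983 and 43841 in P2H2KO. The levels below therefore cannot be assigned to neutrophils alone. The 11 monocyte and macrophage markers summed to 1327 to 1555 CPM in P2WT and 1010 to 1336 in P2KO, and to 1294 to 1432 in P2H2WT and 1023 to 1356 in P2H2KO. The part of these cells in the results was not tested. In such bulk libraries, fewer cells of a type and less RNA per cell cannot be told apart. The labels do not say that each library came from another mouse, so p-values measure the spread between libraries.

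Pfkl, Aldoc and Tpi1 were higher in both deficient groups, and their promoter windows are shown because these genes were called in both lines. The window of Pfkp, a paralogue of Pfkl that was not called, is set beside them. Each window is the RefSeq sequence of GRCm38.p6 from 250 bases before to 50 bases after an annotated start, 5′ to 3′ on the strand of the gene. Capitals mark the core of the hypoxia response element, ACGTG or GCGTG, found on either strand; on the opposite strand these read CACGT and CACGC. Pfkl lies on the minus strand at chr10:78009758-78010057, Aldoc on the plus strand at chr11:78322823-78323122, Tpi1 on the minus strand at chr6:124814109-124814408 and Pfkp on the minus strand at chr13:6648722-6649021.
Pfkl: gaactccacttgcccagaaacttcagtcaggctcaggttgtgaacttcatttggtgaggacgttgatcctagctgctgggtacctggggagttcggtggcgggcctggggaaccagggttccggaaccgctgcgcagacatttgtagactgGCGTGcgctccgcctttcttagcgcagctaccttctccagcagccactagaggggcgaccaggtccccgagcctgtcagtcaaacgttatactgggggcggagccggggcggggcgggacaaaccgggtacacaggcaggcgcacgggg
Aldoc: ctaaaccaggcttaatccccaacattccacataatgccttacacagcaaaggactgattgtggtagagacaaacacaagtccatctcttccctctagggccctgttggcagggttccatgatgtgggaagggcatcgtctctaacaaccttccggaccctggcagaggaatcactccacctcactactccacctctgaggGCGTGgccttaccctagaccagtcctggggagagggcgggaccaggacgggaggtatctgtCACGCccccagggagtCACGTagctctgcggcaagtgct
Tpi1: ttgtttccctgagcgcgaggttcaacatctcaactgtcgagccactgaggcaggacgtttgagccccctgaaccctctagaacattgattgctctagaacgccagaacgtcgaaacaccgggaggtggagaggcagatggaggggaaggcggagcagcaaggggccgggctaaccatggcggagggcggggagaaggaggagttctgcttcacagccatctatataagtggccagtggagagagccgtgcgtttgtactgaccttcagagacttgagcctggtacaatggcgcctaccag
Pfkp: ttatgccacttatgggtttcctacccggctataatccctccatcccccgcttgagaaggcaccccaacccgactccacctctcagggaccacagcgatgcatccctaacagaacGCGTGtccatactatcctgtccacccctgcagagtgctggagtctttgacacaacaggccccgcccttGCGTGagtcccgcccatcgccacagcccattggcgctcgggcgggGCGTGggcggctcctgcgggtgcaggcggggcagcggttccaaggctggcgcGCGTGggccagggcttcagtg

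The Pfkl window held 1 match, GCGTG, whose first base lay 99 bases before the start. The printed Aldoc window held 3, a GCGTG 50 bases before the start and, on the opposite strand, a GCGTG 11 bases and an ACGTG 27 bases after it. Another RefSeq window of Aldoc, not printed here, held 1 match, a GCGTG on the opposite strand. The Tpi1 window held 0 matches and the Pfkp window 4, all GCGTG on the strand of the gene. RefSeq listed 17 windows for the 10 genes, some of them overlapping, and 12 of the 17 (70.6%) held a match, against 14380 of all 32851 windows (43.8%). The search covered both strands, and no matches overlapped in the printed windows. Hk2, which had no detectable difference, held 2 matches of ACGTG, and the single window of Gpi1 held 0. Within these windows, genes with and without a match thus occurred both among the called genes and among the others. Sequence outside the windows was not searched, and binding of HIF was not tested.

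In the P2 line, 3 of the 10 genes rose in the deficient libraries, namely Pfkl, Aldoc and Tpi1, and 0 fell (edgeR quasi-likelihood test, adjusted p under 0.05 over 13734 genes). Over all genes tested, 0.0437% were called higher. At an unadjusted p under 0.05, 4 of the 10 were higher, the added one being Aldoa, against 1.49% of all genes. The libraries of P2KO and P2WT did not overlap for the same 3 genes, against 0.794% of all genes that were higher without overlap. The log2 difference was above 0 for 9 of the 10, against 57.8% of all genes, and its median was 0.17 for the 10 and 0.020 for all genes. That count includes small values whose sign was not stable. Without P2KO replicate 6 the log2 differences of Hk2, Gpi1 and Pfkp were -0.11, -0.15 and -0.025.

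The P2H2 line gave the same 3 calls, Pfkl, Aldoc and Tpi1, all higher and 0 lower, where 0.0744% of 13435 genes were called higher. At an unadjusted p under 0.05, 5 of the 10 were higher, with Aldoa and Pfkp added, against 1.62% of all genes. Groups did not overlap for 4 of the 10, the called genes and Aldoa, against 0.819% of all genes. The log2 difference was above 0 for 9 of the 10, against 50.5% of all genes, with medians of 0.32 for the 10 and 0.0011 for all genes.

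**Figure D1:**
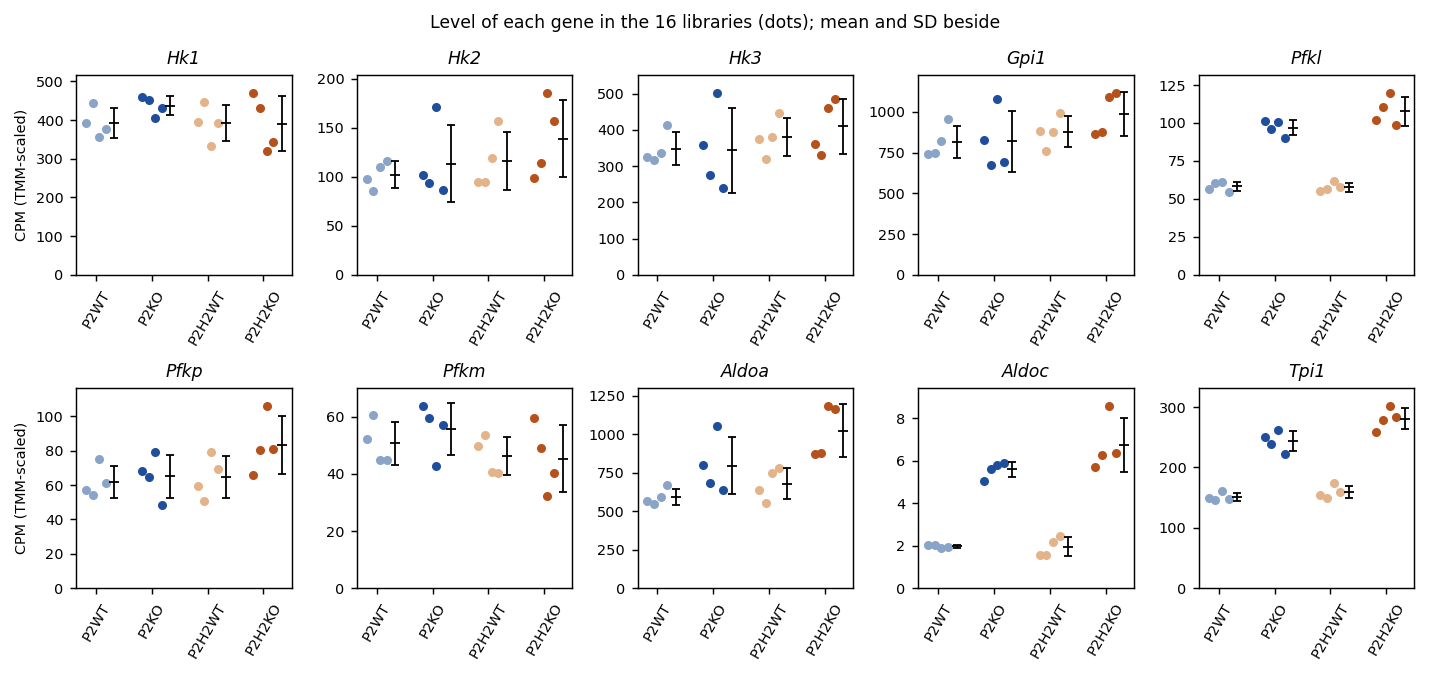
Level of each gene in CPM (vertical axes, each from 0) in the 16 libraries, grouped as P2WT, P2KO, P2H2WT and P2H2KO; dots are libraries in order of their number, and the bar beside them is the mean ± SD of 4. For Pfkl, Aldoc and Tpi1 every dot of a deficient group lies above every dot of its controls, whereas the groups overlap in both lines for Hk1, Hk2, Hk3, Gpi1, Pfkp and Pfkm.

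**Figure D2:**
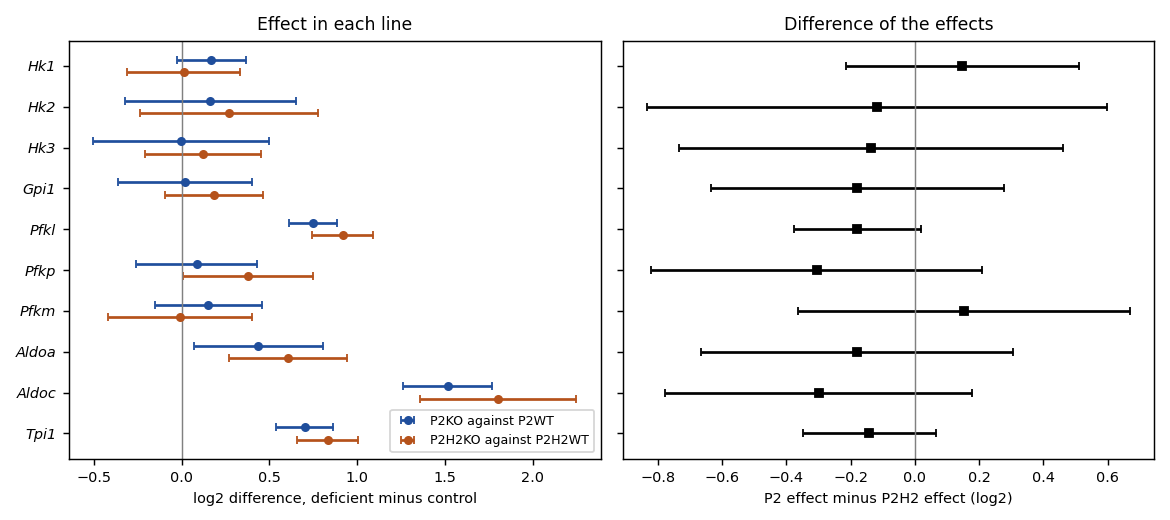
Left, log2 difference (deficient minus control) of each gene in the P2 line (blue) and the P2H2 line (orange) with its 95% interval; right, the difference of these effects, P2 minus P2H2, with its 95% interval. Aldoc has the largest values of the 10 genes, 1.52 and 1.80, and every interval on the right includes 0.

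Hexokinases phosphorylate glucose on entry. Hk1 (ENSMUSG00000037012, chromosome 10, 62268855 to 62379908, minus strand; GENCODE M21 on GRCm38 here and below) encodes the form that binds mitochondria in most tissues. It was at 391, 445, 355 and 376 CPM in P2WT and at 459, 451, 404 and 432 CPM in P2KO. P2H2WT had 395, 445, 332 and 393 CPM and P2H2KO 470, 430, 321 and 343 CPM. The groups overlapped in both lines. Its log2 differences were 0.17 (95% interval -0.028 to 0.37) and 0.012 (-0.31 to 0.33), neither past the threshold.

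Hk2 (ENSMUSG00000000628, chromosome 6, 82725025 to 82774454, minus strand) encodes the inducible muscle-type hexokinase, which is a known HIF target in other cells. It was at 97.9, 85.6, 110 and 116 CPM in P2WT and at 102, 93.8, 171 and 86.6 CPM in P2KO. Only replicate 6 of P2KO lay above all its controls, and replicate 9 was close to the lowest of them. In P2H2WT it was at 94.6, 94.9, 120 and 157 CPM and in P2H2KO at 99.1, 114, 186 and 157 CPM, again with 1 deficient library above all controls. Log2 differences came to 0.16 (SE 0.22, 95% interval -0.32 to 0.65) and 0.27 (SE 0.22, -0.23 to 0.77). Both intervals included 0. The value in the P2H2 line was 0.10 without P2H2KO replicate 15 and 0.45 without P2H2WT replicate 18.

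Hk3 (ENSMUSG00000025877, chromosome 13, 55005985 to 55021385, minus strand) encodes the hexokinase typical of myeloid cells. Its level ranged from 318 to 414 CPM in P2WT and from 239 to 503 CPM in P2KO, the widest range in CPM of the hexokinases. Relative to the mean, Hk2 varied as much in P2KO, with a coefficient of variation of 34.5% against 34.1% for Hk3. The range was 320 to 447 CPM in P2H2WT and 331 to 486 CPM in P2H2KO. Its differences on the log2 scale were -0.0041 (95% interval -0.50 to 0.50) and 0.12 (-0.21 to 0.45).

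Gpi1 (ENSMUSG00000036427, chromosome 7, 34201330 to 34230336, minus strand) encodes the isomerase of the next step and has no paralogue among the 10. It was at 744, 747, 821 and 955 CPM in P2WT and at 831, 674, 1081 and 690 CPM in P2KO. P2H2WT had 883, 761, 875 and 994 CPM and P2H2KO 867, 875, 1093 and 1118 CPM. Both pairs of groups overlapped, with log2 differences of 0.018 (95% interval -0.36 to 0.40) and 0.18 (-0.094 to 0.46). The processed pseudogene Gm1840 is 98.6% identical to Gpi1 over 873 bases, and adding its counts raised the group means by at most 0.372%. Gpi1 shares 741 exonic bases (11.5% of its exons) with the lincRNA Gm26762 on the opposite strand, which was below 1 CPM in every library.

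Phosphofructokinase is encoded by 3 genes whose products form tetramers. Pfkl (ENSMUSG00000020277, chromosome 10, 77986947 to 78010083, minus strand), the liver-type subunit, rose in both deficient groups. It was at 56.8, 60.3, 61.0 and 54.8 CPM in P2WT and at 101, 95.7, 100.4 and 90.3 CPM in P2KO. The highest control, 61.0 CPM, lay well below the lowest deficient library, 90.3 CPM. P2H2WT had 55.0, 56.4, 61.6 and 57.6 CPM and P2H2KO 102, 110, 120 and 98.8 CPM, again without overlap. The ratio of the group means was 1.66 in the P2 line and 1.87 in the P2H2 line. The log2 differences were 0.75 (SE 0.061, 95% interval 0.61 to 0.89, edgeR adjusted p 0.00198) and 0.92 (SE 0.076, 0.74 to 1.09, edgeR adjusted p 0.00233). Both calls held without each library in turn and under the other alternatives. Pfkl was among the least variable of the 10 genes, with a coefficient of variation of 4.92% to 8.76% within groups, and no annotated exon of another gene overlaps its exons.

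Pfkp (ENSMUSG00000021196, chromosome 13, 6579768 to 6648777, minus strand), the platelet-type subunit, was at 56.8, 54.1, 75.4 and 61.3 CPM in P2WT and at 67.9, 64.4, 79.1 and 48.6 CPM in P2KO. P2KO held both the highest and the lowest of these 8 values. In P2H2WT it was at 59.6, 50.9, 79.3 and 69.1 CPM and in P2H2KO at 65.8, 80.2, 106 and 81.1 CPM, where 3 of 4 deficient libraries exceeded all controls. On the log2 scale the differences were 0.085 (95% interval -0.26 to 0.43) and 0.38 (0.0078 to 0.75). The second had an unadjusted p of 0.0462 and did not pass after adjustment, and without P2H2KO replicate 15 it was 0.24 (unadjusted p 0.134). Pfkp shares 748 exonic bases (5.58%) with Pitrm1 on the opposite strand, which had group means of 112 to 127 CPM. Since the use of strand in counting is not given in the sources used here, reads of both genes may be mixed there.

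Pfkm (ENSMUSG00000033065, chromosome 15, 98092589 to 98132451, plus strand), the muscle-type subunit, was at 52.4, 60.6, 44.9 and 44.9 CPM in P2WT and at 63.8, 59.5, 42.9 and 57.3 CPM in P2KO. P2H2WT had 49.8, 53.7, 40.7 and 40.4 CPM and P2H2KO 59.6, 49.1, 32.4 and 40.5 CPM. In both lines the deficient group spread around its controls, and its lowest value was below all of theirs. Its log2 differences were 0.15 (95% interval -0.15 to 0.46) and -0.010 (-0.42 to 0.40). Pfkm shares 341 exonic bases (10.2%) with Gm26513 on the same strand, which was at most 0.889 CPM in any library. How reads in that stretch were counted is not given, so the level of Pfkm may be affected.

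On a scale of CPM per kilobase of annotated exons, used here to compare genes, Pfkm made up 53.1% ± 4.57 (SD, n = 4) and Pfkl 30.6% ± 1.53 of phosphofructokinase transcripts in P2WT. In P2KO the share of Pfkm was 46.2% ± 5.52 and that of Pfkl 40.3% ± 2.83. P2H2WT had shares of 50.5% ± 5.81 and 31.7% ± 2.16, and P2H2KO 37.6% ± 8.12 and 45.0% ± 4.24. The share of Pfkl did not overlap between the groups of either line, at most 32.4% in P2WT against at least 38.5% in P2KO, and at most 33.8% against at least 40.2% in the P2H2 line. Pfkp stayed the smallest of the 3 by mean in each group, between 13.5% and 17.8%. The sum of the 3 genes was 28.5 ± 2.05 CPM per kilobase in P2WT and 36.1 ± 2.56 in P2KO, and 27.3 ± 1.03 in P2H2WT and 36.0 ± 2.24 in P2H2KO. A share shows unequal change within the family, and no test was run on it. With the length of the longest transcript in place of all exons, the share of Pfkl was 38.7% in P2WT, 49.2% in P2KO, 39.7% in P2H2WT and 53.2% in P2H2KO, so the larger of Pfkl and Pfkm in P2KO depends on the length used.

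**Figure D3:**
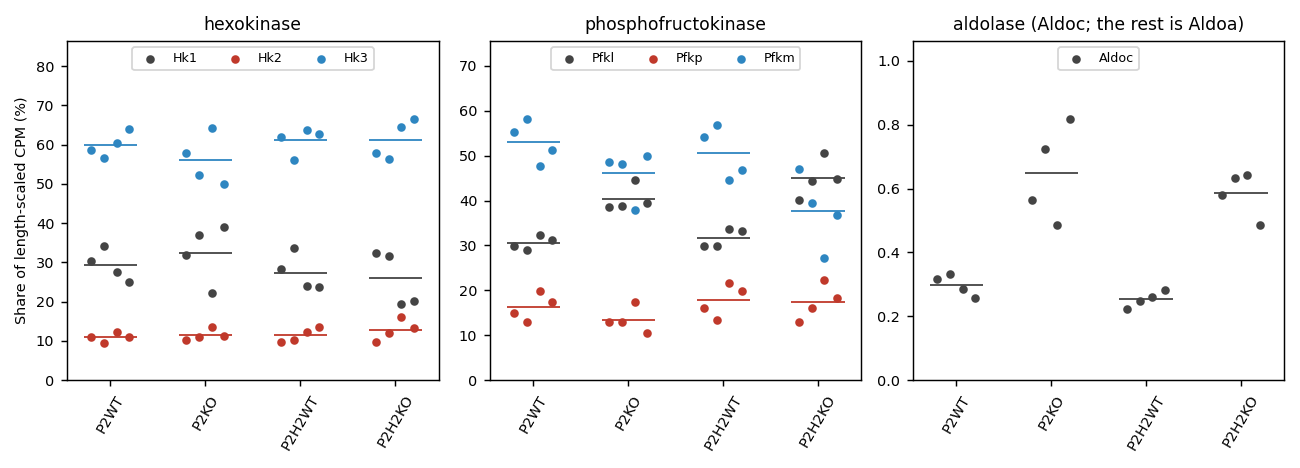
Share of each gene in the length-scaled CPM of its enzyme family (vertical axes in %, each from 0) in the libraries of the 4 groups; dots are libraries and lines are group means. The Pfkl dots rise from 28.9% to 32.4% in P2WT to 38.5% to 44.5% in P2KO, Hk3 is the largest hexokinase in every library, and Aldoc stays under 1% of aldolase in all groups.

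Hexokinase transcripts showed no such shift. On the same scale Hk3 had the largest share in each group, with means of 56.0% to 61.3%, Hk1 had 25.9% to 32.5% and Hk2 10.9% to 12.8%. Their sum was 158 ± 12.3 CPM per kilobase in P2WT and 164 ± 36.4 in P2KO, and 169 ± 17.1 and 180 ± 18.7 in the P2H2 line, with differences smaller than the spread in the deficient groups. With the longest transcript as the length, Hk3 and Hk1 came out close, with means of 45.6% and 45.6% in P2KO.

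Aldolase splits fructose 1,6-bisphosphate. Aldoa (ENSMUSG00000030695, chromosome 7, 126795234 to 126800751, minus strand), the muscle-type enzyme that most cells use, was at 569, 545, 592 and 668 CPM in P2WT and at 800, 685, 1056 and 640 CPM in P2KO. Replicate 9 of P2KO, at 640 CPM, lay below the highest control. P2H2WT had 635, 556, 751 and 779 CPM and P2H2KO 870, 879, 1184 and 1161 CPM, without overlap. The log2 differences were 0.44 (SE 0.16, 95% interval 0.070 to 0.80, unadjusted p 0.0247) and 0.60 (SE 0.15, 0.27 to 0.94, unadjusted p 0.00276, edgeR adjusted p 0.779), neither past the threshold over all genes. Without P2KO replicate 6 the value in the P2 line was 0.27 (SE 0.099). Aldoa was called with covariates for erythroid and late granule content (the mean log2 CPM of each marker list), with edgeR adjusted p values of 0.00263 in the P2 line and 0.0266 in the P2H2 line. In the P2H2 line it was also called by DESeq2 (adjusted p 0.0381) and with the title number as a covariate in edgeR (adjusted p 0.0158). Aldoa has 3 near-identical copies in the tables, Aldoart1, Gm8659 and Aldoa-ps4, whose counts added at most 0.0758% to its group means.

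Aldoc (ENSMUSG00000017390, chromosome 11, 78322968 to 78327781, plus strand), the brain-type aldolase, had the largest log2 differences of the 10 genes and the lowest level. It was at 2.04, 2.03, 1.91 and 1.92 CPM in P2WT and at 5.08, 5.61, 5.79 and 5.92 CPM in P2KO. These values rest on 48 to 54 counts in the controls and 137 to 163 in the deficient libraries. P2H2WT had 1.59, 1.55, 2.19 and 2.46 CPM and P2H2KO 5.70, 6.28, 8.58 and 6.37 CPM. Every deficient library exceeded every control in both lines. The ratio of the group means was 2.84 in the P2 line and 3.46 in the P2H2 line. The log2 differences were 1.52 (SE 0.11, 95% interval 1.26 to 1.77, edgeR adjusted p 0.00104) and 1.80 (SE 0.20, 1.36 to 2.25, edgeR adjusted p 0.0106). The call in the P2 line held without each library in turn. That in the P2H2 line was lost without P2H2KO replicate 17 (edgeR adjusted p 0.0587) and without P2H2WT replicate 13, 14 or 16 (0.0734, 0.0506 and 0.0531), with log2 differences still between 1.71 and 1.86.

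The rise of Aldoc added little to aldolase transcripts as a whole. Per kilobase of exons its share of Aldoa and Aldoc together was 0.298% ± 0.0335 in P2WT and 0.648% ± 0.150 in P2KO, and 0.253% ± 0.0246 in P2H2WT and 0.586% ± 0.0715 in P2H2KO. The sum of both genes was 204 ± 18.3 CPM per kilobase in P2WT and 275 ± 63.9 in P2KO, and 234 ± 35.6 and 354 ± 59.5 in the P2H2 line, nearly all of it Aldoa.

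Tpi1 (ENSMUSG00000023456, chromosome 6, 124810586 to 124814296, minus strand) encodes triose phosphate isomerase and rose in both deficient groups. It was at 150, 147, 161 and 148 CPM in P2WT and at 250.1, 239, 262 and 223 CPM in P2KO. P2H2WT had 155, 149, 174 and 160 CPM and P2H2KO 258, 279, 302 and 284 CPM. The groups did not overlap in either line, and the ratio of the means was 1.61 in the P2 line and 1.76 in the P2H2 line. The log2 differences were 0.70 (SE 0.072, 95% interval 0.54 to 0.86, edgeR adjusted p 0.0105) and 0.83 (SE 0.078, 0.66 to 1.01, edgeR adjusted p 0.00385). The call in the P2H2 line held without each library in turn. That in the P2 line was lost with the m or f suffix of the titles as a covariate (edgeR adjusted p 0.0652), and without P2KO replicate 1 (0.0658) or P2WT replicate 3, 4 or 10 (0.110, 0.0868 and 0.0865), with log2 differences of 0.69 to 0.70. Tpi1 shares 34 exonic bases with Spsb2 on the opposite strand, which had group means of 12.9 to 15.3 CPM. The counts of a near-identical copy, Tpi-rs11, added at most 0.0563%. Another copy, AC132091.1, 94.2% identical over 781 bases, was not among the counted identifiers and could not be added.

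The levels per kilobase of exons spanned a wide range. In P2WT the order from the highest was Aldoa (204 CPM per kilobase), Gpi1 (127), Hk3 (94.6), Tpi1 (55.0), Hk1 (45.9), Hk2 (17.2), Pfkm (15.2), Pfkl (8.72), Pfkp (4.62) and Aldoc (0.605). Hk2 and Pfkm, with SDs of 2.27 and 2.24, did not differ beyond their spread. In P2KO Tpi1 was at 88.5 ± 6.10 CPM per kilobase, within 1 SD of Hk3 at 93.4 ± 31.8. Pfkl, at 14.5 ± 0.752 CPM per kilobase in P2KO, was within 1 SD of Pfkm at 16.7 ± 2.71, and in P2H2KO it stood at 16.1 ± 1.41 beside 13.6 ± 3.50 for Pfkm. With the longest transcript as the length, the order in P2WT was the same, but these near ties in P2KO were not. There Tpi1 was at 152 ± 10.4 beside Hk3 at 107 ± 36.4, and Pfkl at 26.0 ± 1.35 beside Pfkm at 19.4 ± 3.15.

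Loss of HIF2α was present in the P2H2 line only, so its part and that of other differences between the lines cannot be told apart. Epas1 itself already differed between the control groups of the lines. Within this limit, the dependence on HIF2α was examined as the P2 effect minus the P2H2 effect over all 16 libraries. It was past the threshold for 0 of the 10 genes, and for 0 of all 14080 genes tested (0.00%), where the smallest edgeR adjusted p was 0.999. At an unadjusted p under 0.05 there were 0 of the 10 and 212 of all genes (1.51%), and DESeq2 called 0 of the 10 as well. For Pfkl the difference of the effects was -0.18 (SE 0.093, 95% interval -0.38 to 0.018, unadjusted p 0.0725). Tpi1 had -0.14 (SE 0.098, -0.35 to 0.066) and Aldoc -0.30 (SE 0.22, -0.78 to 0.18). These values depended on single libraries. Without P2H2KO replicate 15 the difference was -0.12 (SE 0.085) for Pfkl and -0.16 (SE 0.21) for Aldoc, and without P2KO replicate 9 it was -0.10 (SE 0.10) for Tpi1. Without P2H2KO replicate 17 or P2H2WT replicate 16 the unadjusted p for Pfkl was 0.0352 and 0.0466, and neither passed after adjustment in edgeR. For the 7 genes that were not called in either line the difference ranged from -0.31 in Pfkp to 0.15 in Pfkm, with intervals reaching from -0.83 to 0.67. A smaller effect without HIF2α could therefore not be told from none for genes such as Hk2 (-0.83 to 0.60) and Pfkm (-0.36 to 0.67). For the called genes the estimate was the larger in the P2H2 line. Its log2 differences were 0.92 against 0.75 for Pfkl, 0.83 against 0.70 for Tpi1 and 1.80 against 1.52 for Aldoc.

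The 10 genes varied in different ways among libraries of 1 group. P2KO replicate 6 (suffix m) was the highest of its group for 6 genes, Hk2, Hk3, Gpi1, Pfkp, Aldoa and Tpi1, and the lowest for Hk1 and Pfkm. P2KO replicate 9 was the lowest for 6 genes, Hk2, Hk3, Pfkl, Pfkp, Aldoa and Tpi1. In P2H2KO, replicate 15 (suffix f) was the highest for 6 genes and the lowest for Hk1 and Pfkm. Replicate 11 of that group (suffix m) was the highest for Hk1 and Pfkm and the lowest for 6 others. The controls showed the same pattern, since P2WT replicate 4 and P2H2WT replicate 14 were the highest of their groups for Hk1 and Pfkm and the lowest for 5 and 6 other genes. The log2 ratio of a deficient library to the mean of its controls thus ran from -0.24 to 0.74 for Hk2 in P2KO, but only from 0.63 to 0.80 for Pfkl and from 0.56 to 0.79 for Tpi1.

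Sums of cell-type markers went with this pattern in some libraries and not in others. The summed erythroid markers were 23762 CPM in P2KO replicate 6 and 24166 CPM in P2H2KO replicate 15, the lowest of all 16 libraries, and 38132 to 43076 CPM in the other libraries of P2KO. P2WT replicate 4 and P2H2WT replicate 14 had the highest erythroid sums of their groups, 41654 and 48988 CPM. The neutrophil markers summed to 56010 CPM in P2KO replicate 6 and to 22897 CPM in replicate 9. In P2H2KO they summed to 49624 CPM in replicate 15 but to 60879 CPM in replicate 17. The erythroid sum of P2KO replicate 9, 39270 CPM, was not the highest of its group. By group means, 9 of 9 erythroid markers were higher in P2KO than in P2WT and 9 of 9 were lower in P2H2KO than in P2H2WT, and for the 10 neutrophil markers 7 were lower and 10 higher in those comparisons. The monocyte and macrophage list and the platelet list mostly had the same direction in both lines. Of the 11 monocyte and macrophage markers, 11 were lower in P2KO and 9 in P2H2KO, and of the 5 platelet markers 5 and 4 were higher. Of the 7 T and NK cell markers 6 and 4 were lower. The early granule, late granule, B cell and cell cycle lists reversed by this count. In P2KO 0 of 4, 1 of 6, 4 of 7 and 5 of 5 of them were higher. In P2H2KO these were 4 of 4, 6 of 6, 0 of 7 and 1 of 5. Platelet sums were 38.4 to 89.6 CPM in P2WT, 42.9 to 175 in P2KO, 37.5 to 43.3 in P2H2WT and 29.0 to 77.6 in P2H2KO. With covariates for erythroid and late granule content Pfkl, Aldoc and Tpi1 stayed called in both lines. The part of the monocyte, macrophage and platelet markers in those calls was not tested. With the same covariates the SE in the P2 line was 0.046 for Hk2 (0.22 without them), 0.055 for Hk3 (0.22) and 0.044 for Gpi1 (0.17). It was 0.12 for Pfkp (0.15). In the P2H2 line it was 0.075 for Hk2 (0.22) and 0.083 for Pfkp (0.16). The part of cell content in the spread of Hk1, Hk2, Hk3, Gpi1, Pfkp, Pfkm and Aldoa was not tested further.

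**Figure D4:**
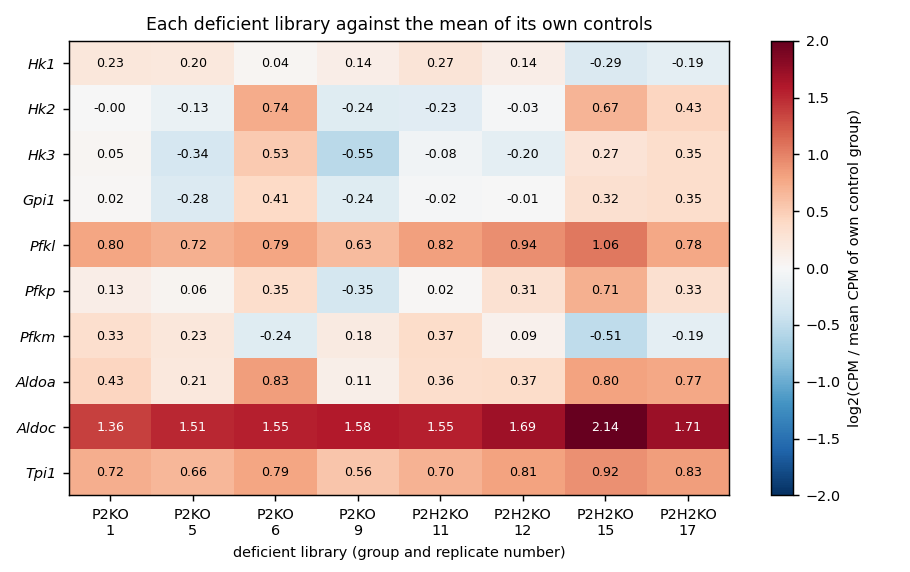
Log2 ratio of each deficient library (columns, group and replicate number) to the mean CPM of its own controls for each gene (rows), with the value printed and coloured from blue (below 0) to red (above 0). Pfkl, Aldoc and Tpi1 are above 0.5 in all 8 libraries, whereas Hk2 and Hk3 change sign between libraries of both groups.

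Likeness was described by Pearson's r of log2 levels over the 16 libraries after subtracting the mean of each line, with no test, since the libraries share their genotype groups. Hk1 and Pfkm had an r of 0.895, and both were negatively related to Hk2 (-0.61 and -0.85). Hk3 and Gpi1 had an r of 0.953. Among 11453 genes searched, the genes most like Pfkl were Tpi1 (r = 0.990), P4ha1 (0.983) and Aldoc (0.979). For Aldoc they were Pfkl, Tpi1 (0.978) and P4ha1 (0.963), and for Tpi1 they were Pfkl, Aldoc and P4ha1 (0.972). P4ha1 encodes a subunit of collagen prolyl hydroxylase and had group means of 31.7 CPM in P2WT, 51.1 in P2KO, 30.5 in P2H2WT and 58.8 in P2H2KO. Pfkl, Aldoc and Tpi1 are thus in each other's 3 nearest genes, and Aldoa had an r of 0.795 to 0.850 with them. The difference between deficient and control libraries stays in these r values, and the search started only from genes called in both lines. A high r among those 3 genes therefore follows in part from how they were chosen. Within P2KO, replicate 1 was the highest for Pfkl and the lowest for Aldoc, while P2H2KO replicate 15 was the highest of its group for all 3.

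The rest of the pathway was followed in 3 lists. The other genes of the hexose steps (10 listed, among them Hkdc1, Adpgk, the fructose bisphosphatases and the PFKFB regulators of phosphofructokinase) gave 0 calls among 7 tested in the P2 line and 6 in the P2H2 line, and 0 at an unadjusted p under 0.05. Their median log2 difference was 0.063 and 0.13. Pfkfb4, which sets the level of the phosphofructokinase activator fructose 2,6-bisphosphate, had log2 differences of 0.063 (SE 0.25) and 0.24 (SE 0.14), and Fbp1, of the reverse reaction, 0.074 (SE 0.21) and 0.27 (SE 0.32). Pfkfb2 had 0.10 (SE 0.20) and -0.14 (SE 0.19).

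Glucose uptake and lower glycolysis (15 listed, 14 and 13 tested) also gave 0 calls. Log2 differences were above 0 for 13 of 14 and 11 of 13, against 57.8% and 50.5% of all genes, with medians of 0.24 and 0.41. At an unadjusted p under 0.05, 3 were higher in P2KO and 7 in P2H2KO, against 1.49% and 1.62% of all genes, and 0 were lower. Slc2a1, a glucose transporter, was at 20.1 CPM in P2WT and 32.1 in P2KO, and at 24.5 in P2H2WT and 45.0 in P2H2KO, with log2 differences of 0.69 (SE 0.23) and 0.90 (SE 0.18, edgeR adjusted p 0.368). Eno1, an enolase, had 0.50 (SE 0.16) and 0.66 (SE 0.14, edgeR adjusted p 0.537), though its near-identical copies were not examined here. Slc16a3, a lactate exporter, had 0.27 (SE 0.32) and 0.77 (SE 0.21).

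The branches that leave from hexose or triose phosphates (14 listed and tested in both lines) gave 0 calls and medians of -0.017 and 0.14. At an unadjusted p under 0.05, 1 was higher and 1 lower in P2KO, and 2 were higher and 1 lower in P2H2KO. Over all genes 1.49% and 1.62% were higher at that level, and 480 of 13734 and 354 of 13435 passed it in either direction. Gpd1, which draws triose phosphate towards glycerol, was the lower one in both lines, at 9.79 CPM in P2WT and 7.22 in P2KO, and at 9.11 in P2H2WT and 5.18 in P2H2KO (log2 differences -0.43, SE 0.15, and -0.80, SE 0.21). Pgm1, which links glycogen to glucose 6-phosphate, had 0.26 (SE 0.085) and 0.34 (SE 0.11), with no overlap between groups in either line. Neither passed the threshold over all genes.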

How the data were processed

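The authors deposited 2 tables of read counts per gene, 1 per line, with whole numbers that had not been normalized, per the file headers. HTSeq and the mm10 build are named in the submitters' processing notes. The aligner, annotation release, strand setting and sorting gates are not given in the sources used here. Symbols from GENCODE M21 matched 49326 of 49585 identifiers, and the unmatched ones held 0.00714% of counts.

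Here, genes were filtered with filterByExpr, scaled by TMM and tested two-sided with glmQLFit (robust) and glmQLFTest of edgeR 4.0.16, with Benjamini-Hochberg adjustment over all genes tested. Each line was fitted alone, and the difference of effects over 16 libraries. Standard errors came from the F statistic. CPM values are relative to TMM-scaled library sizes over 16 libraries and were computed from the deposited counts. Copies of at least 90% identity over 300 bases were found with blastn 2.17.0. Likeness used log2(CPM + 0.5) of genes with a mean of at least 1 CPM. The procedure was tested on simulated data.

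The genes, pathway lists and markers were chosen with earlier results of these data known. Text names all 10 genes, Egln1 and Epas1, the 2 largest differences of each pathway list per line, and the 3 genes most like each gene called in both lines. Predicted genes were left out of the search for likeness. Counts and medians of the pathway lists include genes that are not reported here by name. Of the marker lists, those of early granule, late granule, B cell, T and NK cell, skeletal muscle, platelet and cell cycle genes summed to 2128 to 3824, 19342 to 46834, 190 to 651, 55.5 to 82.2, 8.35 to 14.2, 29.0 to 175 and 2581 to 5107 CPM over the libraries. Azu1 and Ahsp were not matched by symbol. Alternatives comprised RLE and upper-quartile factors, other filters, DESeq2 1.42.0, covariates, a joint fit, leaving out each library, another length and adding copies.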

Additional observations from a re-analysis of the deposited data

Results flagged for a closer look

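Among 80 groups of 4 libraries (20 genes in 4 groups), 1 held a library whose gap to the nearest of the others exceeded the 95% critical value of Dixon's test. About 1 group in 20 would do so by chance. It is not among the 10 enzymes. Egln1, which encodes PHD2, was at 47.7 CPM in P2H2WT replicate 14, against 53.7 to 54.6 CPM in the other libraries of that group. The difference between the lines was past the threshold for 0 of these genes.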

How the results depend on the processing

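The number of the 10 genes called was 2 to 4 in each line under the alternatives and the fits without 1 library, against 3, and was 0 for the difference of the effects in all of them. No paired analysis was possible because the groups share no replicate numbers. Values near 0 changed sign. With the title number as a covariate, the log2 difference of Hk3 in the P2 line was 0.0061 and that of Hk1 in the P2H2 line -0.096. With the suffix as a covariate, Pfkm in the P2H2 line was at 0.074 and the difference of effects for Hk2 at 0.028. With the erythroid and late granule scores, Hk3 in the P2 line was at 0.035, Pfkm in the P2H2 line at 0.16, and the differences of effects for Hk2 and Pfkm at 0.14 and -0.052. The cause was not tested. Leaving out single libraries gave ranges of -0.11 to 0.27 for Hk2, -0.25 to 0.13 for Hk3, -0.15 to 0.11 for Gpi1 and -0.025 to 0.20 for Pfkp in the P2 line. The ranges of the other line were -0.089 to 0.098 for Hk1 and -0.17 to 0.12 for Pfkm. For the difference of effects they were -0.39 to 0.052 for Hk2 and -0.38 to 0.0015 for Hk3. Low counts limit Aldoc, which had 39 to 61 counts in a control library.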
